A study of Mus musculus and Homo sapiens with 32 samples.

Results

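The genes described here are the heat shock proteins and DnaJ cochaperones of the mouse kidney after unilateral ureteral obstruction (UUO), a surgical model of renal fibrosis. Members were the protein-coding genes whose symbols name them as Hspa, Hspb, Hspd, Hspe, Hsph or Hsp90 proteins or as DnaJ proteins of types A, B and C, with a mean of at least 10 counts over 18 libraries. This gave 67 members among the 57180 genes of the count table, and 74 before the count minimum. By the compartment of their proteins, 38 members are cytosolic or nuclear, 14 belong to the endoplasmic reticulum (ER), 8 are mitochondrial and 7 were given no single compartment. Among the last are Dnajc4, Dnajc22, Dnajc28, Hspa12a, Hspa12b and Hspbap1. All 67 members passed the expression filter, which kept 19256 genes for testing. The members nearest above the minimum were Hspa1l, with a mean of 13.4 counts, and Dnajb3, with 30.1. Below it lay Dnajb13 with 8, Dnajb7 with 1.89, Hspb9 with 0.944, Dnajc5b and Hspb3 with 0.222 each, Dnajb8 with 0.0556 and Dnajc5g with 0.

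Chaperones of the Hsp70 family bind exposed hydrophobic stretches of unfolded proteins and release them in a cycle driven by ATP. DnaJ proteins, also called Hsp40s, bring clients to Hsp70 and stimulate its ATPase, and Hsp110 proteins such as Hsph1 exchange its nucleotide. Hsp90 proteins act later, on signalling proteins and receptors, and the small heat shock proteins of the Hspb family hold unfolded proteins without using ATP. Cytosol, ER and mitochondria each have their own Hsp70. These are Hspa8 with the inducible Hspa1a and Hspa1b in the cytosol, Hspa5 (BiP) in the ER, and Hspa9 (mortalin) in mitochondria. Heat shock factor 1 drives many of the cytosolic and mitochondrial genes, and the unfolded protein response drives many of the ER genes. The kidney tubule is rich in mitochondria, and Hspb1 is known to bind actin filaments.

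Kidneys came from mice of the genotypes Pcmt1 fl/fl and, under its label, Pcmt1 tKO. Pcmt1 encodes a methyltransferase that repairs isoaspartyl residues in aged proteins. Each genotype was studied after sham surgery with DMSO, after UUO with DMSO, and after UUO followed by LY2109761, which blocks the kinases of the TGF-beta receptors (UUO+LY below), with 3 libraries in each of the 6 groups. The labels do not spell out tKO, and give no promoter for the deletion, no strain, age or sex, no time after surgery and no dose. They do not say that replicates are separate animals, so the p-values measure the spread between these libraries, which may be technical. Sequencing covered the mRNA of whole kidney tissue. A change in a bulk sample cannot separate fewer cells of a type from less RNA per cell.

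Libraries held 13015669 to 19565376 counts. The share of counts from mitochondrially encoded genes was 30.8 to 35.5% in fl/fl sham, 7.4 to 7.7% in fl/fl UUO and 9.9 to 18.8% in the other obstructed groups. In tKO sham it was 33.7%, 49.7% and 69.5%, so replicate 3 of that group stood apart, with a normalization factor of 0.352. Pcmt1 itself stood at 42.8 to 48.9 CPM in fl/fl sham, and at 22.7 and 24.3 CPM in tKO sham replicates 2 and 3. The library labelled tKO sham replicate 1 gave 49.3 CPM, within or above the fl/fl range, so the counts of calls against tKO sham are also given without it. After UUO, Pcmt1 stood at 35.3 to 41.4 CPM in fl/fl and 24.7 to 26.1 CPM in tKO. In UUO+LY the fl/fl libraries gave 31.3, 25.7 and 39 CPM and the tKO libraries 23.1 to 28 CPM, so the library labelled fl/fl UUO+LY replicate 3 lay within the tKO range. Here CPM are read counts scaled by the library size after TMM normalization. Because so much of a sham library is mitochondrial RNA, scaling by column totals instead raised the median change of all genes with UUO from 0.02 to 0.76 on the log2 scale in fl/fl and from 0.02 to 1.06 in tKO. Every change below is relative to the TMM scale.

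Promoters of members whose expression is discussed below were read from RefSeq (GRCm38.p6), as 250 bases before to 50 after the start of transcription. Of the 67 members, 53 had such a window. A heat shock element, searched on both strands as GAA, TTC and GAA with 2 bases of any kind between neighbours, or as the reverse complement TTC, GAA and TTC, was found in 4 of the 53, namely Dnajb6, Hspd1, Hspe1 and Hsph1. This is 7.55% of them, against 0.662% of 27025 genes with a window. Hspd1 and Hspe1 are divergent neighbours and share 1 site. An ER stress element, searched on both strands as CCAAT and CCACG with 9 bases of any kind between them, was found in Hspa5, Hsp90b1 and Dnajc3, that is in 3 of the 12 ER members with a window (25%), against 0.137% of all genes. The 5 windows below have motif letters in capitals. The first window carries the site shared by the mitochondrial chaperonin pair. The next 3 are the ER members with the stress element. The last belongs to the member with the largest rise with UUO and holds neither motif as searched. The search took exact letters and spacing only, so imperfect elements were not counted in any window.
Hspe1, chr1:55087898-55088197, plus strand: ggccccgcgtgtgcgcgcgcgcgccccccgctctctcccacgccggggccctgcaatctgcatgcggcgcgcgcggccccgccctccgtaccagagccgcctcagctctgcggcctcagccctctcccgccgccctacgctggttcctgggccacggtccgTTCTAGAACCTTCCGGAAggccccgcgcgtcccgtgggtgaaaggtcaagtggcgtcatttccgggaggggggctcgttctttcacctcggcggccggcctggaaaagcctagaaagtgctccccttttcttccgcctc
Hspa5, chr2:34771840-34772139, plus strand: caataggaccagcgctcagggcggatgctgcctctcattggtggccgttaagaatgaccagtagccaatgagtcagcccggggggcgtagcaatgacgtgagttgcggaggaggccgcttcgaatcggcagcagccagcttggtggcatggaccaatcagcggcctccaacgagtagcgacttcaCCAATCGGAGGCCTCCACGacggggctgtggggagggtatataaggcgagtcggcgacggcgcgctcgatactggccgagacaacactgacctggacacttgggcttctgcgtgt
Hsp90b1, chr10:86705395-86705694, minus strand: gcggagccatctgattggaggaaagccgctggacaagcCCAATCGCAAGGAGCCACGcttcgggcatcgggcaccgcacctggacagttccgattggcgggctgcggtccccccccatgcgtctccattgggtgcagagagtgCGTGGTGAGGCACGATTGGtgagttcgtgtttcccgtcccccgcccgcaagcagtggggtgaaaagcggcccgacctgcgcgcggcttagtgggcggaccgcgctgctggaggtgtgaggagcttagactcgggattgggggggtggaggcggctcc
Dnajc3, chr14:118937682-118937981, plus strand: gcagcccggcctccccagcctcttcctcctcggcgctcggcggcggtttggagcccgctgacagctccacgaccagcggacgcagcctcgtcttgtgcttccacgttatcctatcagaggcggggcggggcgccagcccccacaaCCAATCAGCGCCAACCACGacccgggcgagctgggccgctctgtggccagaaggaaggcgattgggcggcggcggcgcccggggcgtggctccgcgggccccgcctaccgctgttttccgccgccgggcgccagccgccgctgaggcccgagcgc
Hspb1, chr5:135887669-135887968, plus strand: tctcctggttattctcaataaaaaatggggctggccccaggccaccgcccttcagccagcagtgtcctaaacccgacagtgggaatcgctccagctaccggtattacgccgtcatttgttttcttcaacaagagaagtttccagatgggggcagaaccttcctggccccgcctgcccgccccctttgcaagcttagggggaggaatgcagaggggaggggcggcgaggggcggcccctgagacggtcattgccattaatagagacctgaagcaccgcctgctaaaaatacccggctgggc
A match is a description of these letters and was not tested as a binding site.

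In fl/fl sham kidneys the most abundant member per transcript length was Hsp90ab1, the constitutive cytosolic Hsp90, at 136 ± 14.7 FPKM (SD, n = 3; the authors' deposited values). The mitochondrial chaperonin Hspd1 (Hsp60) followed at 105 ± 14.3 FPKM, the cytosolic Hsp70 Hspa8 at 79.9 ± 9.44 and the Hsp60 lid Hspe1 (Hsp10) at 72.4 ± 12.1. Hsp90b1 (Grp94), the Hsp90 of the ER, stood at 62.3 ± 8.13 FPKM and Hspa9 at 58.6 ± 2.3. In the unobstructed fl/fl kidney, 3 of the 6 most abundant members were therefore mitochondrial. Hspb1 ranked 20th of 67 there, at 11 ± 2.75 FPKM. Within tKO UUO kidneys, Hspb1 stood at 121 ± 26.4 FPKM and Hspd1 at 38.8 ± 6.97. These FPKM values order genes within a group and were not compared between groups.

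**Figure D1:**
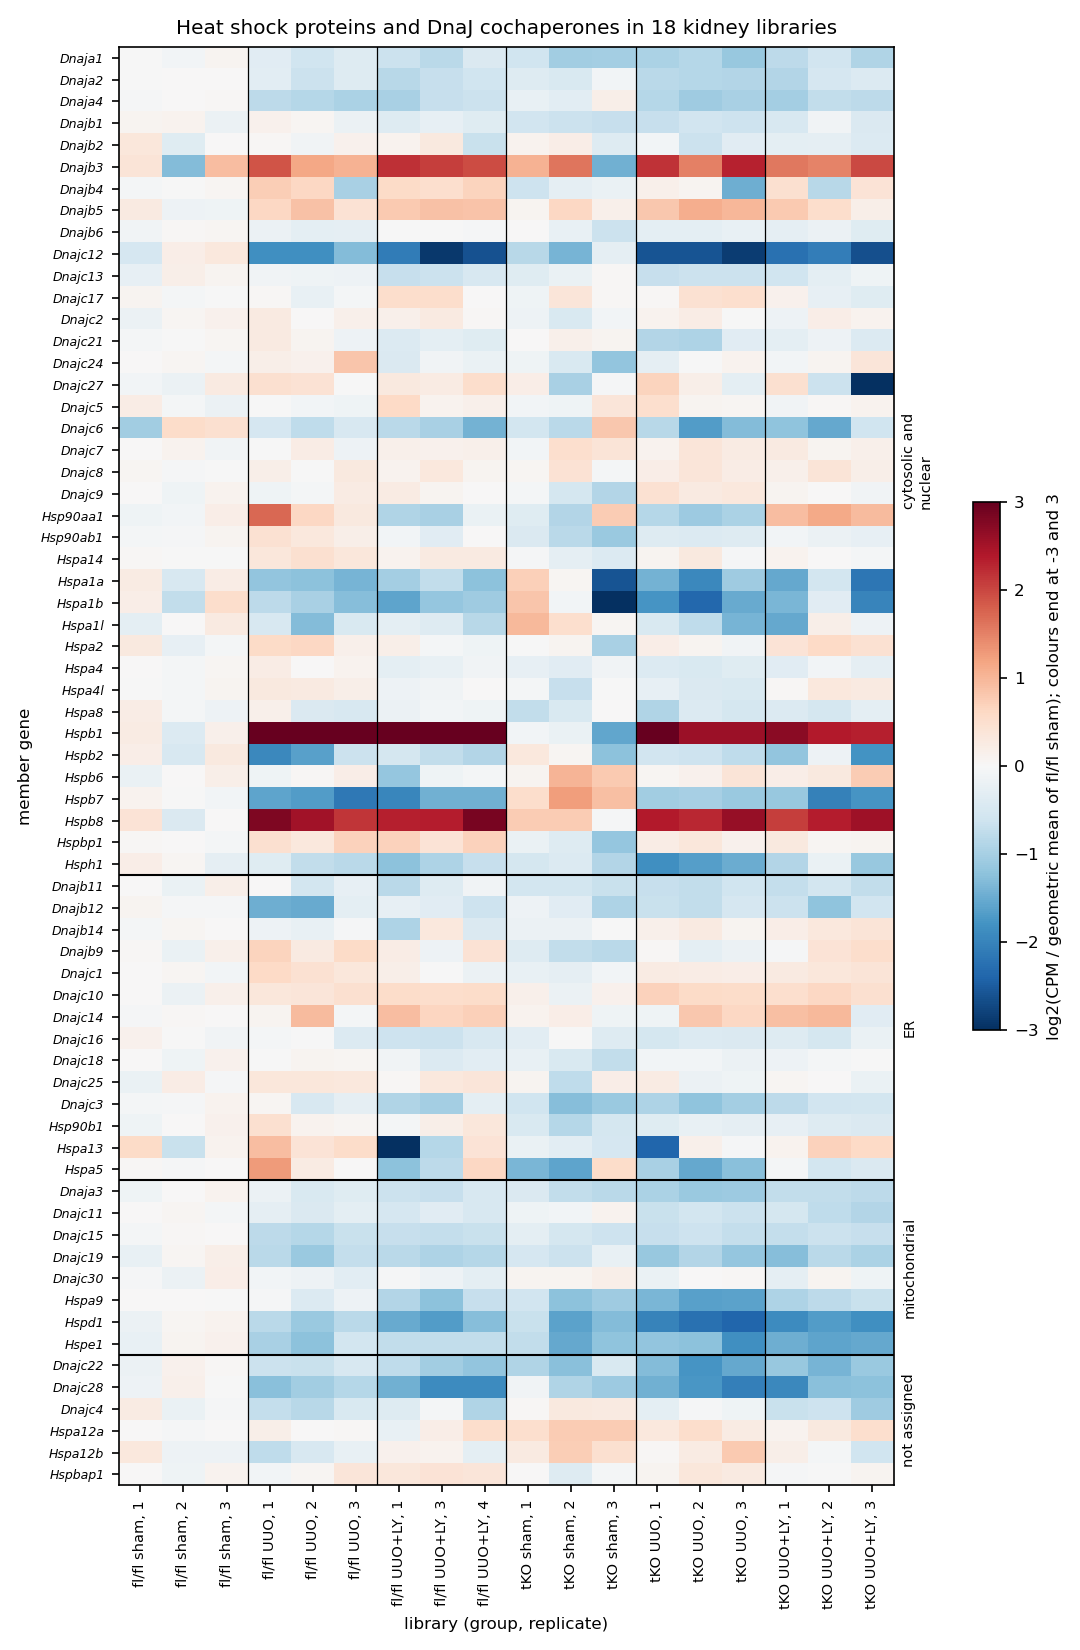
Rows are the members reported by name and columns the kidney libraries; colour is the log2 ratio of its CPM to the geometric mean of the 3 fl/fl sham libraries, and horizontal lines separate the compartments. Hspb1 and Hspb8 are red in all 12 obstructed libraries, and Hspd1, Hspe1 and Dnajc12 are blue in all 12.

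Obstruction moved the members in both directions. In fl/fl kidneys 9 of 67 members rose and 18 fell with UUO against sham (edgeR's quasi-likelihood test, Benjamini-Hochberg adjusted p under 0.05 over 19256 genes). Of all genes tested, 39.6% were called, 20.9% higher and 18.7% lower, so the members' 27 calls lie near the background. The sham and UUO libraries did not overlap for 38 members, beside 54.8% of all genes. By compartment, 6 cytosolic members rose and 7 fell, 3 ER members rose and 1 fell, and 6 of 8 mitochondrial members fell and none rose. Without fl/fl sham replicate 2 the rises came to 3, and without fl/fl UUO replicate 2 the falls came to 8. Median changes were 0.02 on the log2 scale for cytosolic, 0.27 for ER and -0.56 for mitochondrial members, beside 0.02 for all genes. In tKO kidneys 8 members rose and 17 fell, where 41.0% of all genes were called, 21.6% higher and 19.4% lower. The libraries did not overlap for 34 members, beside 48.8% of all genes. There 6 cytosolic members rose and 10 fell, 2 ER members rose, and 5 mitochondrial members fell. The medians were -0.08, 0.20 and -0.49. Without the library labelled tKO sham replicate 1, 12 members rose and 14 fell. Leaving out any 1 library, that one included, kept the tKO calls of Hspb1 (2.87 to 3.42), Hspb8 (1.66 to 1.98), Hspb7 (-2.13 to -1.76), Dnajc12 (-2.14 to -1.58) and Hspd1 (-1.25 to -0.75). With column totals in place of TMM, 29 members rose and 2 fell in fl/fl and 42 rose and 2 fell in tKO, and the mitochondrial medians became 0.18 and 0.56. On that scale all genes had medians of 0.76 and 1.06.

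The 2 genotypes share no library in these comparisons, but 1 model over all 6 groups estimated the spread for both. The overlap of calls was not computed for all genes, so the shares below do not set the members apart. Of the risers, 7 were common, which is 77.8% of those in fl/fl and 87.5% of those in tKO: Hspb1, Hspb8, Dnajb5, Hspa14, Hspbp1, Dnajc1 and Dnajc10. Of the fallers, 11 were common, 61.1% and 64.7%: Dnaja2, Dnaja3, Dnaja4, Dnajc11, Dnajc12, Dnajc19, Dnajc22, Dnajc28, Hspb7, Hspd1 and Hsph1. Only some of these common members kept the call in both genotypes whichever single library was left out. Among the risers they were Hspb1, Hspb8 and Dnajc1. Among the fallers they were Dnaja4, Dnajc12, Dnajc19, Dnajc28, Hspb7 and Hspd1. Under column totals Dnaja2, Dnaja3, Dnajc11 and Dnajc22 were above 0 in both genotypes, as were Hsph1 in fl/fl and Dnaja4 and Dnajc19 in tKO. No member was called in opposite directions. The difference between the genotypes in the response to UUO was called for 0 of 67 members by edgeR (0.0415% of all genes called, 0.0104% higher and 0.0312% lower). Of the 67, 4 had an unadjusted p below 0.05, beside 2423 of all 19256 genes. The DESeq2 Wald test called 1 member higher and 2 lower, and its share of all genes was not computed. Without the library labelled tKO sham replicate 1, edgeR called 2 higher and 0 lower.

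The small heat shock protein Hspb1 (Hsp27) showed the largest rise. Its level in fl/fl was 31.1, 19.9 and 29.3 CPM after sham and 288, 241 and 246 CPM after UUO. In tKO it was 24.7, 23.1 and 8.97 CPM after sham and 210, 156 and 156 CPM after UUO. In both genotypes the lowest obstructed library lay several times above the highest sham library. The log2 change was 3.27 ± 0.30 (SE; 9.65-fold, adjusted p = 9.3e-07) in fl/fl and 3.18 ± 0.30 (adjusted p = 1.3e-06) in tKO. The Hspb1 count carries a caveat, because 42.7% of the 100-base windows of its transcript also occur in another annotated gene, the pseudogene Hsp25-ps1.

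Hspb8, which works with Bag3 in selective autophagy of misfolded proteins, was the other strong riser. It stood at 7.6, 4.22 and 5.72 CPM in fl/fl sham and at 39.5, 32.8 and 25 CPM in fl/fl UUO. The tKO libraries gave 9.61, 9.66 and 5.58 CPM after sham and 29.4, 27 and 34.9 CPM after UUO. The groups did not overlap in either genotype, and the log2 change was 2.47 ± 0.26 in fl/fl (adjusted p = 3.4e-06) and 1.85 ± 0.26 in tKO (adjusted p = 4.0e-05). Bag3 itself, from 40.3 to 51.2 CPM in fl/fl sham and from 46.5 to 58.1 in fl/fl UUO, was not called.

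Another small heat shock protein, Hspb7, moved the other way. This gene, best known from heart and skeletal muscle, fell from 11.4, 10.6 and 9.97 CPM in fl/fl sham to 3.57, 3.35 and 2.41 CPM in fl/fl UUO. In tKO it fell from 15.3, 25.2 and 19.7 CPM to 5.17, 5.35 and 4.88 CPM. The log2 change was -1.77 ± 0.25 in fl/fl (adjusted p = 4.7e-05) and -1.97 ± 0.25 in tKO (adjusted p = 1.7e-05), with no overlap of the groups. Summed markers of skeletal and heart muscle (Ckm, Acta1, Myh7, Myl2) were at or below 3.78 CPM in every library. The 5 smooth muscle and pericyte markers summed to 133 to 266 CPM in fl/fl sham and 291 to 463 CPM in fl/fl UUO, and to 264 to 544 and 400 to 609 CPM in tKO, where the ranges overlapped. Of these, Myh11 fell with UUO as Hspb7 did, from 32.5 to 71.7 CPM to 11.3 to 15.7 CPM in fl/fl (log2 -1.92 ± 0.44) and from 72.8 to 168 CPM to 16.1 to 45.7 CPM in tKO (-1.96 ± 0.44). Tagln and Des instead rose without overlap in both genotypes, with means from 55.6 to 227 and 20.1 to 32 CPM in fl/fl. In tKO their means went from 86.2 to 217 and 21.35 to 53.7 CPM. The sham and UUO ranges of Acta2 and Cnn1 overlapped in both genotypes. The part of these markers in the Hspb7 result was not tested. Hspb2 fell in fl/fl by 1.34 ± 0.43 on the log2 scale (adjusted p = 0.021). With each of the 6 libraries left out in turn, this call held in 2 fits. The Hspb2 locus overlaps that of Cryab, from which reads could not be separated here. Hspb6 was not called in any comparison.

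The DnaJ protein Dnajc12, a cochaperone of the aromatic amino acid hydroxylases, had the steepest fall among DnaJ members. Its level was 53.4, 87.1 and 95 CPM in fl/fl sham and 21.3, 21.3 and 30.8 CPM in fl/fl UUO. In tKO the libraries gave 43, 28.8 and 63.4 CPM after sham and 12.7, 12.7 and 10.5 CPM after UUO. Sham and obstructed libraries did not overlap. The log2 change was -1.68 ± 0.29 in fl/fl (adjusted p = 3.0e-04) and -1.91 ± 0.30 in tKO (adjusted p = 1.1e-04).

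DNAJC12 was also the single member in the authors' table of genes that differ between HK-2 cells, a human proximal tubule line, with and without PCMT1. Its FPKM there was 1.31, 1.55 and 1.35 in wild-type cells and 0.515, 0.828 and 0.422 in PCMT1 knockout cells, with 63, 78 and 77 counts against 26, 44 and 21. That table lists 379 genes chosen on the same libraries, so the values are given without a test. No member was among the 410 genes of the corresponding table of whole kidneys from wild-type and Pcmt1 knockout mice.

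Other risers in fl/fl were moderate, apart from Hsp90aa1, the stress-inducible cytosolic Hsp90. Hsp90aa1 went from 90.4, 93.3 and 114 CPM in fl/fl sham to 326, 151 and 121 CPM in fl/fl UUO (log2 change 1.01 ± 0.38, adjusted p = 0.0459). Without fl/fl UUO replicate 1 the change was 0.46 (adjusted p = 0.342). The call was also lost on leaving out any fl/fl sham library, with the replicate block, and with only the groups compared. The DnaJ proteins Dnajb5 (0.64), Dnajc1 (0.46), Dnajb9 (0.50) and Dnajc10 (0.39), the nucleotide exchange factor Hspbp1 (0.51) and the ribosome-bound Hsp70 Hspa14 (0.38) made up the rest. With each of the 6 libraries left out in turn, the Dnajc1 call held in 6 fits and that of Dnajc10 in 5. The calls of Dnajb5 and Hspa14 held in 3 fits each, that of Dnajb9 in 2 and that of Hspbp1 in 1. Dnajc9, a histone cochaperone, rose in tKO by 0.79 ± 0.18 (adjusted p = 0.00215).

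The stress-inducible Hsp70 genes Hspa1a and Hspa1b did not rise. Hspa1a stood at 51.3, 31 and 50.6 CPM in fl/fl sham and 19, 18.5 and 16.5 CPM in fl/fl UUO, a difference that did not pass the adjusted threshold (log2 -1.30 ± 0.54, adjusted p = 0.0691). Hspa1b stood at 145, 75.7 and 181 CPM in fl/fl sham and 72.6, 64.4 and 51.8 CPM in fl/fl UUO (log2 -1.09 ± 0.63, adjusted p = 0.189). In tKO the sham libraries were spread from 13.6 to 224 CPM, and the fall of Hspa1b with UUO (log2 -1.76 ± 0.64, adjusted p = 0.0393) became -0.92 (adjusted p = 0.272) without the library labelled tKO sham replicate 1. The pair is uncertain, since 48.6% and 49.9% of the windows of their transcripts occur in another annotated gene, mostly each other. Hspa8, the constitutive Hsp70, was not called in any comparison. Its windows are shared to 62.8%, mainly with pseudogenes. Hsph1, the Hsp110 that recharges Hsp70, fell by 0.63 ± 0.23 in fl/fl and by 1.06 ± 0.23 in tKO (adjusted p = 0.036 and 0.00166), and under column totals its fl/fl change was 0.11.

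**Figure D2:**
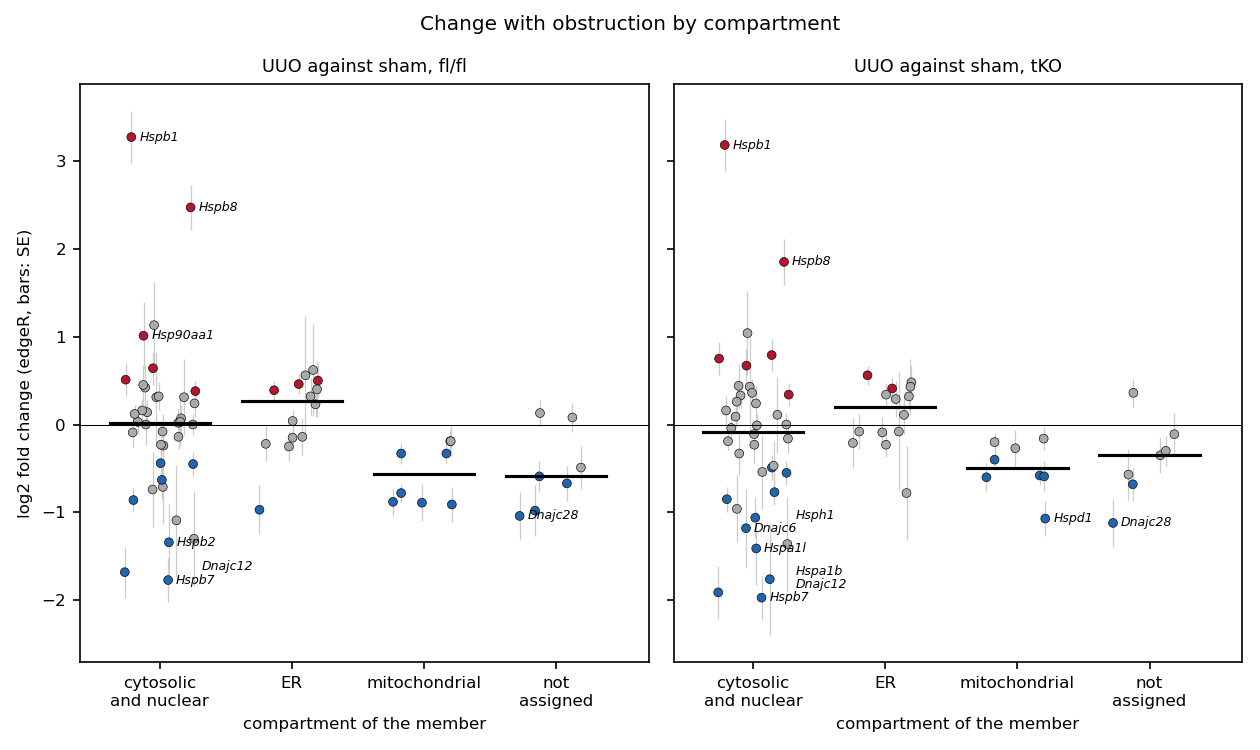
Points are members, with the edgeR log2 fold change of UUO against sham on the y axis (bars: SE) by compartment on the x axis; red rose and blue fell past the threshold, grey did not pass, black lines are compartment medians, and names mark called members changed by at least 1. Hspb1 and Hspb8 lead the rises in both genotypes, and no mitochondrial member rose.

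Among mitochondrial members, the Hsp60 gene Hspd1 fell in both genotypes. It measured 343, 405 and 417 CPM in fl/fl sham and 221, 178 and 222 CPM in fl/fl UUO. In tKO it measured 244, 127 and 158 CPM after sham and 96.9, 81.5 and 74 CPM after UUO. Sham and obstructed libraries did not overlap within a genotype. The log2 change was -0.91 ± 0.20 in fl/fl (adjusted p = 0.00185) and -1.07 ± 0.20 in tKO (adjusted p = 5.6e-04). Its partner Hspe1 fell in fl/fl, from 142, 177 and 184 CPM to 85.1, 71.4 and 114 CPM (log2 -0.89 ± 0.21, adjusted p = 0.00339). In tKO the libraries of Hspe1 overlapped, with 100, 57.7 and 71.6 CPM after sham and 73.1, 70.9 and 46.5 CPM after UUO, and the change was not called (log2 -0.27 ± 0.21). Both counts carry a caveat, because 26.9% of the 100-base windows of Hspd1 and 20.4% of those of Hspe1 occur in another annotated gene. The loci of the pair also overlap.

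The import motor component Dnajc19 fell by 0.88 ± 0.16 and 0.60 ± 0.16 in fl/fl and tKO. Its relative Dnajc15 fell by 0.78 ± 0.10 in fl/fl, where adjusted p was 2.9e-05, and was not called in tKO (log2 -0.20 ± 0.10). Dnaja3, the mitochondrial Hsp40 also called Tid1, fell by 0.33 ± 0.12 and 0.40 ± 0.12, and Dnajc11, of the cristae-organizing complex, fell by 0.33 ± 0.11 and 0.58 ± 0.11. Hspa9 was called in tKO (log2 -0.59 ± 0.17, adjusted p = 0.0117), but not without the library labelled tKO sham replicate 1 (log2 -0.37, adjusted p = 0.0745). In fl/fl it stood at 432, 437 and 425 CPM after sham and 420, 323 and 389 CPM after UUO and was not called. Dnajc30 was not called in either genotype. Under column totals the falls of Dnaja3 and Dnajc11 in both genotypes, and of Hspa9 and Dnajc19 in tKO, took values of 0.40 to 0.61 above 0.

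Many partners of the mitochondrial members fell as well. Of 14 mitochondrial folding and protease partners, 10 fell and 1 rose in fl/fl, and 9 fell and 1 rose in tKO. Of all genes, 18.7% fell and 20.9% rose in fl/fl, and 19.4% fell and 21.6% rose in tKO. Trap1, the mitochondrial Hsp90, fell by 0.87 ± 0.10 and 1.04 ± 0.10, and the disaggregase Clpb by 1.15 ± 0.13 and 1.11 ± 0.13. The AAA protease subunit Afg3l2 fell by 0.77 ± 0.11 and 1.04 ± 0.11. The protease gene Htra2 was the 1 that rose, by 0.62 ± 0.19 and 0.95 ± 0.19. These values stand beside a change in cell markers whose part in the result was not tested. The 5 proximal tubule markers (Lrp2, Slc34a1, Slc5a2, Slc22a6, Cubn) summed to 3500 to 6170 CPM in fl/fl sham and 1390 to 2410 CPM in fl/fl UUO. In tKO they summed to 4010 to 5340 and 701 to 837 CPM. Macrophage markers (Adgre1, Csf1r, Cd68, C1qa) summed to 122 to 151 CPM in fl/fl sham and 329 to 367 CPM in fl/fl UUO, and fibroblast markers to 72.6 to 97.8 and 351 to 436 CPM. Among the macrophage markers, C1qa went from a mean of 16.9 to 191 CPM, and Adgre1 and Cd68 also rose without overlap. Csf1r overlapped, with means of 117 and 106 CPM.

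The main ER chaperones were not called with obstruction. Hsp90b1 (log2 0.23 ± 0.15), Hspa5 (0.62 ± 0.52), Dnajb11 (-0.25 ± 0.17), a BiP cochaperone, and Dnajc3 (-0.22 ± 0.20), the p58IPK that also restrains the kinase PERK, did not pass the threshold in fl/fl, nor in tKO. Dnajb12, an ER-membrane DnaJ, fell in fl/fl by 0.97 ± 0.28 (adjusted p = 0.0123), where its libraries gave 19.1, 18.6 and 43.1 CPM against 51.3 to 55.3 CPM after sham. The Dnajb12 call was lost without fl/fl UUO replicate 1 or replicate 2. Of 15 ER folding partners tested, 3 rose and 1 fell in fl/fl, and 6 rose and 1 fell in tKO. Of all genes, 20.9% rose and 18.7% fell in fl/fl, and 21.6% and 19.4% in tKO, so the fl/fl rises lie near the background. The oxidoreductases Pdia3 (0.73 ± 0.13 and 0.77 ± 0.13) and Pdia6 (0.78 ± 0.16 and 0.77 ± 0.16) rose in both. Manf, an ER stress secreted factor, rose in tKO by 1.40 ± 0.22.

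The genotypes were compared in each surgical state. In tKO sham kidneys 2 members were higher and 15 lower than in fl/fl sham (edgeR), where 12.3% of all genes were called, 5.76% higher and 6.57% lower. The genotypes did not overlap for 27 members, beside 30.3% of all genes. The lower members comprised 3 cytosolic, 5 ER and 5 mitochondrial genes and 2 with no compartment assigned. The median difference was -0.21 for cytosolic, -0.42 for ER and -0.56 for mitochondrial members, beside 0.03 for all genes. Leaving out the library labelled tKO sham replicate 1 gave 19 lower and 4 higher, leaving out replicate 3 gave 12 and 0, leaving out replicate 2 gave 6 and 0, and leaving out fl/fl sham replicate 2 gave 9 and 0. A fit on the 6 sham libraries alone called 0 members in either direction, and column totals called 1 lower. The direction of each of these 17 calls held in those fits. The calls of Dnaja1, Dnaja3, Dnajb1, Hspa9, Hspd1 and Hspe1 held whichever of the 6 sham libraries was left out.

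After UUO, 1 member was higher and 18 were lower in tKO than in fl/fl (edgeR), where 17.9% of all genes were called, 8.27% higher and 9.65% lower. The genotypes did not overlap for 41 members, beside 42.4% of all genes. The lower ones were 10 cytosolic, 4 ER and 3 mitochondrial members and 1 without a compartment, and the higher one was Hspa12b. The medians were -0.32, -0.32 and -0.39, beside 0.05 for all genes. Without fl/fl UUO replicate 1 the calls came to 10 lower and 0 higher, and all 10 were among the 18. Without tKO UUO replicate 2 or replicate 3 there were 11 lower. The calls of Dnaja3, Dnajb1, Dnajc21, Dnajc22, Hsp90aa1, Hsp90ab1, Hspa4, Hspa9, Hspd1 and Hsph1 held whichever of these 6 libraries was left out. The sham and UUO comparisons share no library, but the spread was estimated by 1 model over all groups. Their overlap was not computed for all genes, so the shares that follow do not set the members apart. In both, 10 members were lower in tKO, which is 66.7% of those lower in sham and 55.6% of those lower after UUO: Dnaja1, Dnaja3, Dnajb1, Dnajb9, Dnajc3, Dnajc22, Hsp90ab1, Hsp90b1, Hspa9 and Hspd1.

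**Figure D3:**
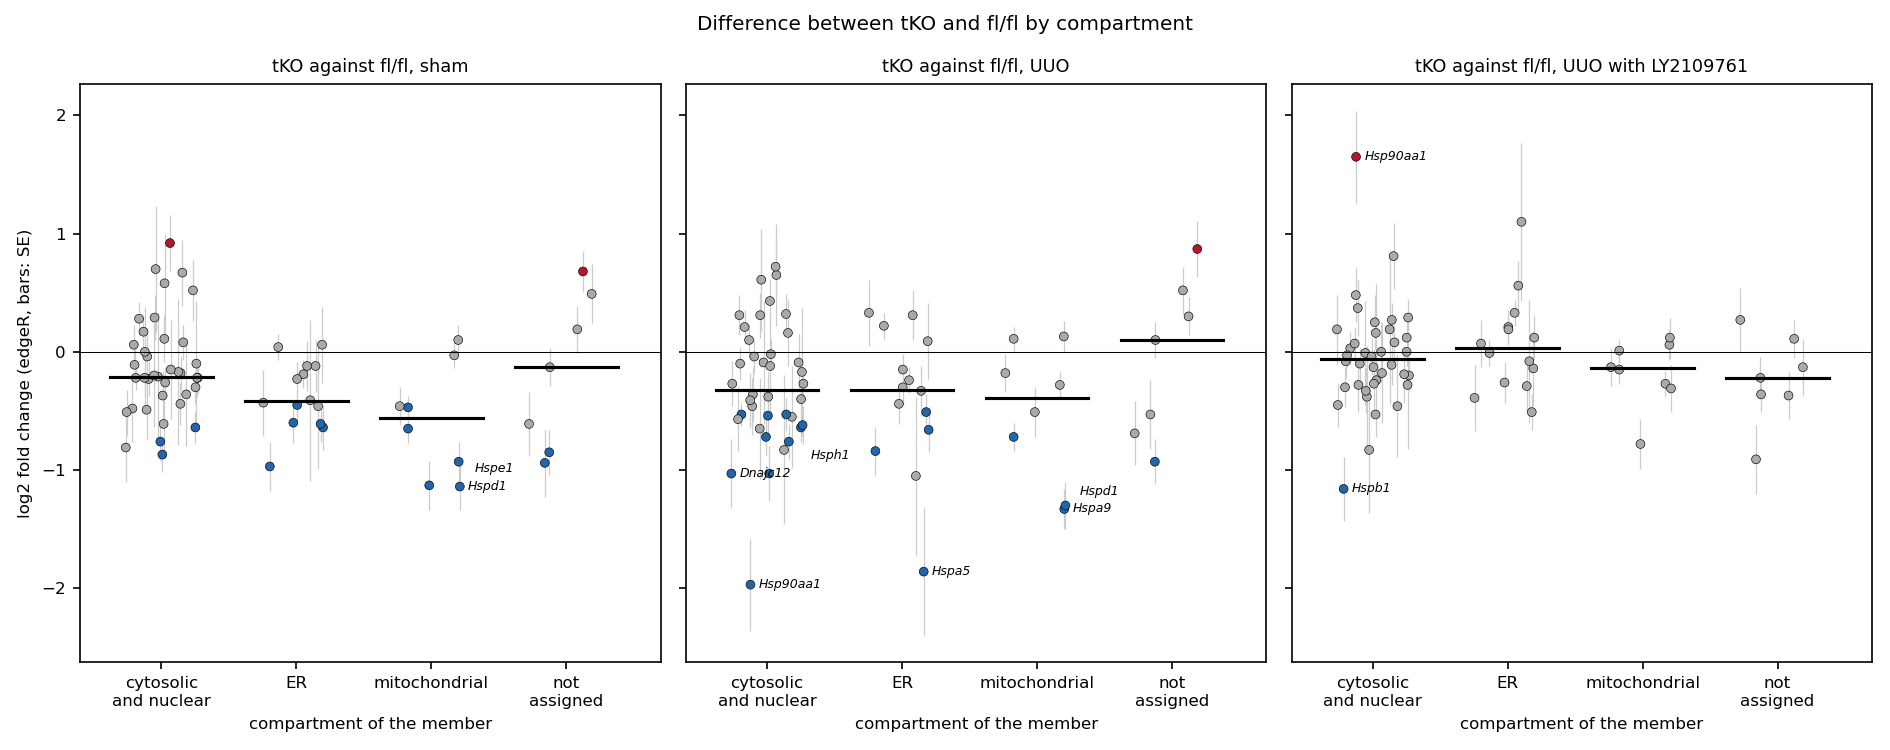
Points are members, with the edgeR log2 difference of tKO minus fl/fl on the y axis (bars: SE) by compartment on the x axis, in sham, UUO and UUO+LY kidneys; red is higher and blue lower past the threshold, grey did not pass, and black lines are medians. In sham and UUO most called members are lower in tKO, whereas in UUO+LY the 2 called members are Hsp90aa1 and Hspb1.

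Several mitochondrial chaperones were lower in tKO. Hspa9, the motor of mitochondrial protein import, gave 432, 437 and 425 CPM in fl/fl sham against 289, 185 and 207 CPM in tKO sham. After UUO it gave 420, 323 and 389 CPM in fl/fl against 168, 141 and 143 CPM in tKO. The genotypes did not overlap in either state, and the difference was -0.93 ± 0.17 in sham (adjusted p = 0.00706) and -1.33 ± 0.17 after UUO (2.51-fold, adjusted p = 7.1e-04). Leaving out any 1 library of the groups kept both calls, with values from -1.14 to -0.80 in sham and from -1.43 to -1.24 after UUO. Hspd1 was lower by 1.14 ± 0.20 in sham (adjusted p = 0.00582) and by 1.30 ± 0.20 after UUO (adjusted p = 0.00168). Hspe1 was lower in sham by 1.13 ± 0.21 (adjusted p = 0.00783) and was not called after UUO (log2 -0.51 ± 0.21). Dnaja3 was lower by 0.65 ± 0.12 and 0.72 ± 0.12.

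Of the mitochondrial partners, Trap1 was lower in both states, by 0.61 ± 0.10 and 0.77 ± 0.10. Grpel1, the nucleotide exchange factor of Hspa9, was lower in sham by 1.20 ± 0.26. In all, 3 of 14 partners were lower in sham, and 3 were lower and 1 higher after UUO. Of all genes, 6.57% were lower in sham, and 9.65% were lower and 8.27% higher after UUO. Summed mitochondrial members came to 1210 to 1356 CPM in fl/fl sham and 602 to 889 CPM in tKO sham, and to 783 to 967 and 447 to 522 CPM after UUO. The proximal tubule marker sums of the sham groups overlapped (3500 to 6170 CPM in fl/fl and 4010 to 5340 in tKO). Among those markers, however, Lrp2 gave 1062 to 1456 CPM in fl/fl sham and 519 to 943 CPM in tKO sham (log2 -0.86 ± 0.24), and Cubn gave 281 to 342 and 151 to 197 CPM (-0.81 ± 0.18), both lower in tKO without overlap. The other markers of this list overlapped between the sham groups. Slc34a1 gave 1676 to 3319 CPM in fl/fl and 2480 to 3152 in tKO. Slc5a2 gave 162 to 629 and 360 to 456 CPM, and Slc22a6 gave 320 to 655 and 390 to 702 CPM. After UUO the sums were 1390 to 2410 CPM in fl/fl and 701 to 837 CPM in tKO. Fibroblast marker sums after UUO were 351 to 436 CPM in fl/fl and 694 to 1120 CPM in tKO. The part of these markers in the sham and UUO results was not tested.

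**Figure D4:**
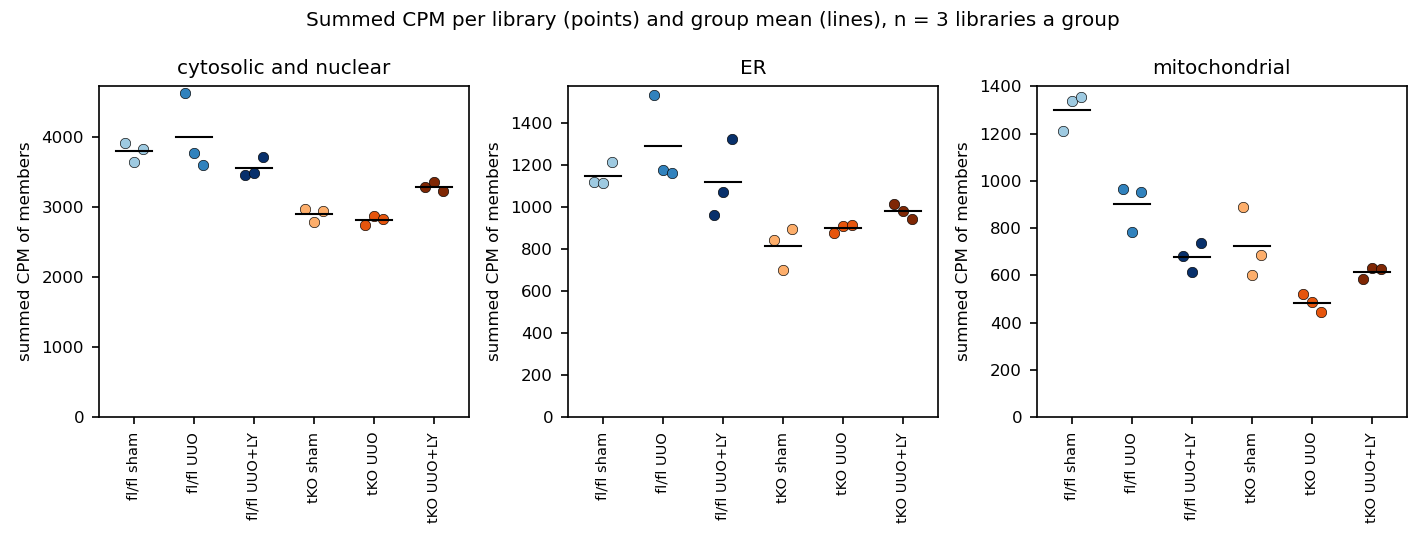
Summed CPM of the cytosolic and nuclear, ER and mitochondrial members (y axis, from 0) in each library (points) by group (x axis), with the group mean as a line. Mitochondrial sums fall from 1210 to 1356 CPM in fl/fl sham to 447 to 522 CPM in tKO UUO.

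In the cytosol, Hsp90ab1 was the most abundant member that differed. It measured 1010, 1021 and 1113 CPM in fl/fl sham and 777, 595 and 487 CPM in tKO sham. After UUO it measured 1434, 1296 and 1186 CPM in fl/fl and 796, 783 and 805 CPM in tKO. All tKO libraries lay below all fl/fl libraries of the same state, and the difference was -0.76 ± 0.16 (adjusted p = 0.0105) and -0.72 ± 0.16 (adjusted p = 0.00776). Dnajb1, the main Hsp40 of the heat shock response, was lower by 0.64 in both states (SE 0.13 and 0.12). Dnaja1, the farnesylated Hsp40, was lower by 0.87 ± 0.15 and 0.54 ± 0.15. After UUO, Hsph1 was lower by 1.03 ± 0.23, and its relatives Hspa4 and Hspa4l by 0.53 ± 0.10 and 0.62 ± 0.16. Dnajc21, which acts in ribosome maturation, was lower by 0.76 ± 0.15 and the endosomal Dnajc13 by 0.53 ± 0.14.

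The Hsp90 partners followed in part. Of 25 cytosolic cochaperones and heat shock factors, 7 were lower in tKO sham, and 5 were lower and 2 higher in tKO UUO. Of all genes, 6.57% were lower in sham, and 9.65% were lower and 8.27% higher after UUO. Ahsa1, the activator of the Hsp90 ATPase, was lower by 0.80 ± 0.15 in sham. Stip1 (Hop), which hands clients from Hsp70 to Hsp90, was lower by 0.62 ± 0.13 in sham and 0.60 ± 0.13 after UUO, and the immunophilin Fkbp4 by 0.63 ± 0.13 and 0.61 ± 0.13. Of the 8 subunits of the cytosolic chaperonin CCT, which folds actin and tubulin, 7 were lower in sham and 4 after UUO. Among them Cct3 was lower by 0.71 ± 0.13 and 0.73 ± 0.13. Hspb1 was not called between genotypes in sham or UUO.

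Hsp90aa1 differed between genotypes after UUO and not in sham. Its sham libraries overlapped, at 76.2, 53.7 and 168 CPM in tKO beside 90.4 to 114 CPM in fl/fl. After UUO the 326, 151 and 121 CPM of fl/fl stood against 54.8, 46.7 and 50.8 CPM in tKO (log2 -1.97 ± 0.39, adjusted p = 0.00504). Without fl/fl UUO replicate 1 the difference was -1.42 (adjusted p = 0.0295). The test of whether the UUO response itself differed gave -1.97 ± 0.54 with an adjusted p of 0.141. Hsp90aa1 shares 47.5% of its windows with pseudogenes.

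Among ER members, Hspa5 had the largest genotype difference after UUO. Its libraries gave 311, 153 and 129 CPM in fl/fl UUO and 65.1, 44.1 and 53.8 CPM in tKO UUO (log2 -1.86 ± 0.54, adjusted p = 0.0274). The groups did not overlap, but without fl/fl UUO replicate 1 the difference was -1.38 with an adjusted p of 0.132, and the call was also lost on leaving out any tKO UUO library. In sham, tKO gave 49.5, 43.1 and 189 CPM beside 126 to 131 CPM in fl/fl, and was not called. Hsp90b1 was lower by 0.61 ± 0.15 in sham and 0.51 ± 0.15 after UUO, Dnajc3 by 0.97 ± 0.21 and 0.84 ± 0.20, and Dnajb9 (ERdj4) by 0.64 ± 0.19 and 0.66 ± 0.19. With each of the 6 libraries left out in turn, the Hsp90b1 call held in 3 fits in sham and 2 after UUO, that of Dnajc3 in 5 and 4, and that of Dnajb9 in 1 and 2. Dnajb11 was lower in sham by 0.60 ± 0.17 and not called after UUO (log2 -0.44 ± 0.17).

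Hspa5, Hsp90b1 and Dnajc3 are the 3 members whose promoters, shown above, hold the ER stress element. Hsp90b1 and Dnajc3 were lower in tKO in both states, and Hspa5 was called after UUO. Dnajb9, not among these 3, was also lower in both states. Dnajb11, whose window holds no such element, was lower in sham. A link between the element and the genotype difference was not tested. Of 15 ER folding partners tested, 7 were lower in tKO sham and 5 in tKO UUO, and none was higher. Of all genes, 6.57% were lower in sham and 9.65% after UUO. Manf (-1.34 ± 0.22), Xbp1 (-1.28 ± 0.29) and Sdf2l1 (-1.17 ± 0.25) led in sham, and Hyou1, the Hsp110 of the ER, after UUO (-2.15 ± 0.38, adjusted p = 0.003). In tKO sham, immediate early genes moved as well. Of 10, 5 were higher than in fl/fl sham, beside 5.76% of all genes. Among them were Fos (3.94 ± 0.62) and Egr1 (3.93 ± 0.55), and their part in the results was not tested.

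Members that were higher in tKO were few. Hspb7 was higher in sham (0.92 ± 0.24, adjusted p = 0.0254), as was Hspa12a (0.68 ± 0.17, adjusted p = 0.0197), a distant Hsp70 relative. Both calls held with tKO sham replicate 1 left out, and both were lost on leaving out any of the other 5 sham libraries. Smooth muscle and pericyte marker sums were 133 to 266 CPM in fl/fl sham and 264 to 544 CPM in tKO sham, with Myh11 at 32.5 to 71.7 and 72.8 to 168 CPM. Acta2 and Cnn1 were also higher in tKO sham without overlap, whereas Des and Tagln overlapped between the sham groups. The part of these markers in the result was not tested. Hspa12b, an endothelial relative of Hspa12a, was higher after UUO by 0.87 ± 0.24 (adjusted p = 0.0237), and endothelial marker sums were 135 to 155 CPM in fl/fl UUO and 180 to 228 CPM in tKO UUO. Its call did not hold without fl/fl UUO replicate 1 or 2 or tKO UUO replicate 3.

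The inhibitor LY2109761 was compared with its DMSO control among obstructed kidneys. In fl/fl, 3 members were lower in UUO+LY than in UUO and none was higher (edgeR; 5.15% of all genes called, 2.52% higher and 2.62% lower). The libraries did not overlap for 23 members, beside 31.8% of all genes. The 3 lower members were Hsp90aa1 (-1.66 ± 0.39, adjusted p = 0.0288), Hspa9 (-0.72 ± 0.17, adjusted p = 0.0302) and Dnajc1 (-0.46 ± 0.11, adjusted p = 0.0341). None was called without fl/fl UUO replicate 1, nor without fl/fl UUO+LY replicate 1 or replicate 3. In tKO, 0 of 67 members were called by edgeR (0.171% of all genes called, 0.0831% higher and 0.0883% lower). The libraries did not overlap for 19 members, beside 25.6% of all genes. There 14 of 67 members had an unadjusted p below 0.05, beside 3314 of all 19256 genes. The DESeq2 Wald test called 4 members higher, and its share of all genes was not computed.

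The difference between the genotypes in the response to LY2109761 was called for 14 members, 12 of them with a more positive change in tKO and 2 with a more negative one (edgeR; 13.8% of all genes called, 7.05% higher and 6.80% lower). This comparison shares the UUO and UUO+LY libraries of fl/fl with the fl/fl result above. It also shares the UUO libraries of both genotypes with the comparison of tKO and fl/fl after UUO. The 2 results are therefore not separate. The 12 were 7 cytosolic members (Dnajb1, Dnajc13, Dnajc21, Hsp90aa1, Hspa4, Hspa4l, Hsph1), 2 ER members (Dnajc1, Dnajc3) and 3 mitochondrial members (Dnaja3, Hspa9, Hspd1). All of them except Dnajc1 were among the 18 members already called lower in tKO after UUO. The 2 were Dnajc17, a nuclear splicing-related DnaJ, and Dnajc4. Without fl/fl UUO replicate 1 the calls were 4 and 0, and the 4 were Dnajc13, Hsp90aa1, Hspa4l and Hspa9. With other libraries left out, the positive calls numbered 5 to 15. These 4 were called whichever of the 12 libraries was left out. Without the library labelled fl/fl UUO+LY replicate 3 the calls were 7 and 0. Proximal tubule marker sums also moved in opposite orders with LY2109761, from 1390 to 2410 CPM to 999 to 1310 CPM in fl/fl and from 701 to 837 CPM to 1100 to 1380 CPM in tKO. The difference of the changes was 1.58 ± 0.34 for Lrp2 and 1.82 ± 0.26 for Cubn (adjusted p = 0.0084 and 0.00164). The libraries of Lrp2, Cubn and Slc34a1 separated in opposite orders in the genotypes. Those of Slc5a2 and Slc22a6 overlapped between UUO and UUO+LY in both genotypes. The part of these markers in the members' results was not tested.

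Hsp90aa1 had the widest difference. In fl/fl it went from 326, 151 and 121 CPM in UUO to 53.1, 50.2 and 85.8 CPM in UUO+LY. In tKO it went from 54.8, 46.7 and 50.8 CPM to 186, 217 and 192 CPM. The libraries separated in opposite orders in the 2 genotypes, and the difference of the changes was 3.63 ± 0.55 (adjusted p = 0.00188). Leaving out each library gave 3.08 to 3.92, and column totals gave 3.61.

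Hspa9 followed the same order at smaller size. It went from 420, 323 and 389 CPM to 236, 184 and 266 CPM in fl/fl and from 168, 141 and 143 CPM to 227, 249 and 272 CPM in tKO. The groups did not overlap within a genotype, and the difference of the Hspa9 changes was 1.45 ± 0.24 (adjusted p = 0.00258). Hsph1 gave 104, 80.6 and 76.9 CPM in fl/fl UUO beside 57.1, 70.2 and 82.8 CPM in fl/fl UUO+LY. Hsph1 gave 37.2, 42.5 and 48.1 CPM in tKO UUO beside 72.5, 116 and 60.7 CPM in tKO UUO+LY. The fl/fl groups overlapped and the tKO groups did not (difference of changes 1.28 ± 0.32, adjusted p = 0.018, and 1.13 with an adjusted p of 0.0544 without fl/fl UUO replicate 1).

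Between the genotypes in UUO+LY, 2 members were called (edgeR; 2.98% of all genes called, 0.888% higher and 2.09% lower). The libraries did not overlap for 18 members, beside 27.2% of all genes. Hsp90aa1 was higher in tKO by 1.65 ± 0.39 (adjusted p = 0.035) and Hspb1 lower by 1.16 ± 0.27 (adjusted p = 0.0364). Hspb1 measured 275, 385 and 324 CPM in fl/fl UUO+LY and 173, 136 and 131 CPM in tKO UUO+LY, with no overlap. The Hspb1 call held only without tKO UUO+LY replicate 1, and the Hsp90aa1 call only without that library or fl/fl UUO+LY replicate 4. Hspa9 (0.12 ± 0.17), Hspd1 (-0.31 ± 0.20), Hsp90ab1 (-0.04 ± 0.16) and Hspa5 (-0.08 ± 0.52), all lower in tKO after UUO alone, were not called here.

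**Figure D5:**
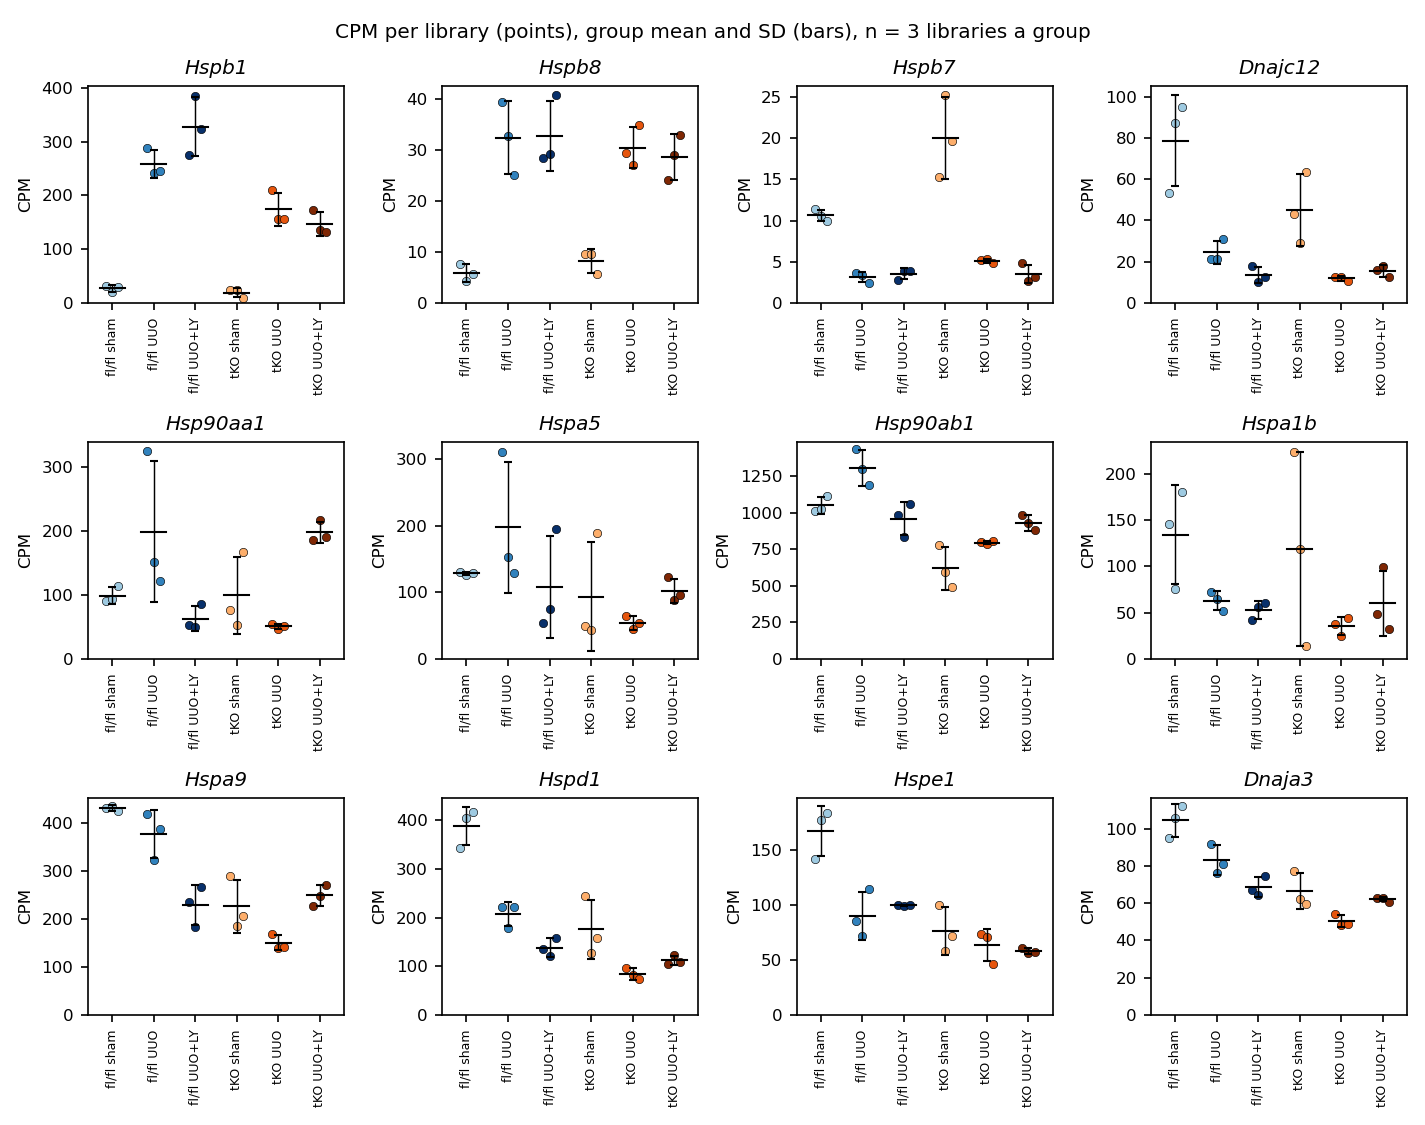
CPM of 12 members (panels; y axis from 0) in each library by group, with 3 points, the mean and the SD for each group. Hspb1 and Hspb8 are high in all obstructed groups, and Hsp90aa1 is high in fl/fl UUO and in tKO UUO+LY.

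Over the 9 comparisons, 46 members were called at least once and 21 never. The share of all genes called at least once was not computed, so these counts do not set the members apart. In single comparisons up to 41.0% of all genes were called. The 21 included the abundant Hspa8 and the synaptic-vesicle cochaperone Dnajc5, together with Hspa1a and Hspa13.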

How the data were processed

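RNA-seq of mouse kidney gave 18 libraries in 6 groups of 3. Values were taken as deposited: the authors' raw read counts per gene, used for all tests, and the authors' FPKM values, used only to compare levels between genes. RNA was extracted with TRNzol and libraries made with an ABclonal kit, per the labels' protocols. The submitters' processing notes name fastp, HISAT2, StringTie and GRCm38/mm10. The counting step, annotation and strand setting are not given in the sources used here. Gene positions in the count table overlap those of GENCODE M21 on GRCm38 for 10 of 67 members, so no position from that table is printed.

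Counts were fitted with edgeR 4.0.16 (R 4.3.3): TMM scaling, filterByExpr, 1 group-means model over all 6 groups with 12 residual degrees of freedom, the quasi-likelihood F-test and Benjamini-Hochberg adjustment over 19256 genes at 0.05. Log2 changes carry a prior count of 0.125. An SE is the size of the log2 change divided by the square root of F. The code was tested on simulated data. Depth was 13015669 to 19565376 counts. The alternatives were DESeq2 1.42.0 with its size factors and its Wald test, column totals, removal of mitochondrially encoded genes, no filter, a replicate block, only the groups compared, and leaving out each library. Same-numbered libraries did not deviate together, with correlations of -0.13 to 0.12. The tables of HK-2 cells and whole knockout kidneys hold only genes chosen on their own libraries and were not tested.

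Members, lists and tests were chosen with earlier results of these data known. Named in full were 18 core chaperones and, in each comparison, up to 8 members with the largest rise and 8 with the largest fall, and up to 4 genes per partner list with the smallest p. Bag3, Htra2, Hspb6, Dnajc30 and some further members were named after their values were seen. Sharing of sequence between genes was measured as exact 100-base windows of the longest coding transcript in GENCODE M21. Counts and medians cover all 67 members, of which 1 is not reported here by name.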

Additional observations from a re-analysis of the deposited data

Results flagged for a closer look

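The following members differed between the genotypes in their change from UUO to UUO+LY, by the interaction term of edgeR's quasi-likelihood test. Each value is the log2 change in tKO minus that in fl/fl, with its Benjamini-Hochberg adjusted p. The UUO libraries of both genotypes enter this difference and also the genotype comparison after UUO. In the cytosol the differences were 3.63 for Hsp90aa1 (0.00188), 1.28 for Hsph1 (0.018), 0.91 for Hspa4l (0.0154), 0.84 for Dnajc21 (0.02), 0.80 for Dnajc13 (0.016), 0.64 for Dnajb1 (0.0277) and 0.50 for Hspa4 (0.0351). In mitochondria they were 1.45 for Hspa9 (0.00258), 0.99 for Hspd1 (0.0305) and 0.58 for Dnaja3 (0.0351). In the ER they were 0.91 for Dnajc3 (0.0475) and 0.57 for Dnajc1 (0.0306). The negative differences were -0.96 for Dnajc17 (0.0323) and -0.88 for Dnajc4 (0.0494). Of these 14, Hsp90aa1, Hspa9, Hspa4l and Dnajc13 passed the threshold whichever of the 12 libraries was left out.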

How the results depend on the processing

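Of 107 member calls, 107 held with DESeq2 size factors and with its Wald test, 104 without mitochondrially encoded genes, 96 with the replicate block, 75 without a filter, 75 with only the groups compared and 29 with column totals, where 17 changed sign. Column totals gave these counts of members higher and lower: UUO in fl/fl 29 and 2, UUO in tKO 42 and 2, genotype in sham 0 and 1, in UUO 0 and 5, in UUO+LY 0 and 0, the LY interaction 1 and 0, and 1 lower with LY in fl/fl. The signs that turned in fl/fl were Dnaja2 0.29, Dnajc4 0.07, Dnajc22 0.15, Dnajc11 0.41, Dnaja1 0.30, Dnaja3 0.40 and Hsph1 0.11. In tKO they were Dnaja2 0.56, Dnajc22 0.45, Dnajc6 0.08, Dnajc11 0.50, Dnaja3 0.61, Hspa9 0.41, Dnaja4 0.27, Dnajc21 0.28, Dnajc13 0.62 and Dnajc19 0.50. With only the groups compared, 5 rose with UUO in tKO, 0 were higher and 0 lower by genotype in sham, 0 higher in UUO, 2 lower in UUO+LY, 0 lower with LY in fl/fl, 1 higher with LY in tKO and 1 lower in the LY interaction. Without a filter, 0 were higher by genotype in sham, 0 lower in UUO+LY, 1 lower with LY in fl/fl, and 6 higher and 0 lower in the LY interaction. The DESeq2 Wald test gave 2 higher by genotype in UUO, 4 lower in UUO+LY, 9 lower with LY in fl/fl, 4 higher with LY in tKO, and 1 higher and 2 lower in the UUO interaction. Without mitochondrially encoded genes, 1 was higher with LY in tKO and 1 lower in the LY interaction. The replicate block gave 0 higher and 0 lower by genotype in UUO+LY, 8 and 18 for UUO in fl/fl, 7 and 15 in tKO, and 14 and 2 for the LY interaction. The labels share replicate numbers but no stated pairing. Leaving out 1 library gave 3 to 7 higher and 8 to 16 lower for UUO in fl/fl, and 7 to 12 and 13 to 19 in tKO. By genotype it gave 0 to 4 and 6 to 19 in sham, 0 to 2 and 10 to 20 in UUO, and 0 to 1 and 0 to 1 in UUO+LY. For LY it gave 0 to 1 and 0 to 3 in fl/fl and 0 to 1 higher in tKO, and for the interactions 0 to 2 higher (UUO) and 4 to 15 and 0 to 3 (LY). The cause of these differences was not tested.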

Other observations

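Within groups, 47 of 67 members kept their highest library within 2 times the lowest in every group, and 11 had a group with over 3 times. The inducible Hspa1b spread most, at 13.6, 119 and 224 CPM in tKO sham, followed by the ER-associated Hsp70 Hspa13 at 1.29, 8.52 and 20.7 CPM in fl/fl UUO+LY. Dnajc27 gave 0.697, 3.65 and 8.04 CPM in tKO UUO+LY. Dnajb4, a cytosolic Hsp40, gave 17, 51.4 and 56.4 CPM in fl/fl UUO. None of Hspa13, Dnajb4 and Dnajc14 was called in any of the 9 comparisons.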
